A study of Homo sapiens with 3 samples.

Results

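The 9 genes described here encode core parts of the Wnt pathway: DKK1, FZD6, APC, AXIN1, AXIN2, GSK3B, CTNNB1, TCF7L2 and LEF1. They are 9 of the 20037 protein-coding genes of the reference table, and they were chosen from SOX4 chromatin immunoprecipitation (ChIP-seq) lists in which some of them were already known to have sites. SOX4, a transcription factor of the high-mobility-group family, was mapped in BT549 cells, a human line from a triple-negative breast cancer, in 3 libraries called replicates 1, 2 and 3 after their titles. All 3 used the same Abcam SOX4 antibody on cells grown in RPMI-1640 with insulin and serum, and all carry the label passage 5 and the letters UT in their titles, which the labels do not explain. The libraries form 1 group in 1 cell line, no input or second condition was analysed here, and the labels leave it unsaid if separate cultures were used. ChIP lists give no expression level, so the cell type label could not be checked against marker genes.

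Each library came as a list of summits, which are single bases where a peak is highest, each with a score given by the authors, the −log10 of either its p or its q value. Replicate 1 had 1368 summits, replicate 2 had 1713 and replicate 3 had 4430, with median scores of 6.12, 5.57 and 5.58. Read numbers were not used here, so the depth of each library is unknown, and a score has a meaning only within its own list. All summits inside each gene or within 50 kb of its ends were collected. Summits of 2 libraries at most 200 bp apart were taken as shared. Chains of summits with no gap over 200 bp made up regions, called reproducible when they held at least 2 libraries. The windows of the 9 genes held 16 of the 7511 summits, 4 of them from replicate 1, 4 from replicate 2 and 8 from replicate 3.

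Wnt ligands bind Frizzled receptors and LRP co-receptors at the cell surface. Without a ligand, the scaffold proteins AXIN1, AXIN2 and APC hold beta-catenin (the product of CTNNB1) beside the kinase GSK3B, which marks it for destruction; with a ligand, beta-catenin accumulates, enters the nucleus and works with the TCF/LEF factors, among them TCF7L2 and LEF1. DKK1 is secreted and blocks the LRP co-receptors, and AXIN2 and DKK1 are themselves known targets of the pathway. SOX and TCF/LEF factors share the high-mobility-group type of DNA-binding domain, and SOX4 has been described as a partner of beta-catenin and TCF proteins.

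The promoter windows below show where summits fell on 3 annotated starts and which short motifs stood at DKK1. They are RefSeq windows of GRCh38.p14, from 250 bases before the start to 50 bases from the start on, written 5′ to 3′ on the gene's strand, all of them plus-strand genes. In the CTNNB1 and APC windows the capitals mark the 21 bases centred on a summit. In the DKK1 window, which holds no summit, the capitals mark motif matches: GGGCGG, the TCF/LEF form CTTTGAA, and CTTTGTT, which is the SOX form AACAAAG read on the other strand.
CTNNB1 at chr3:41199255-41199554, replicate 1 summit: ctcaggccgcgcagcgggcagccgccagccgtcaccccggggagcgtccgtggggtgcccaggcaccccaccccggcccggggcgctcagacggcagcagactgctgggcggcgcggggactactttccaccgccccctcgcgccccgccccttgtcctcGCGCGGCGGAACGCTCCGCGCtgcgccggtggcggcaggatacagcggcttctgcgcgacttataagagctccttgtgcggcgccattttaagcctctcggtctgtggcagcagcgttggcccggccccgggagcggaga
APC upstream start at chr5:112707248-112707547, replicate 3 summit: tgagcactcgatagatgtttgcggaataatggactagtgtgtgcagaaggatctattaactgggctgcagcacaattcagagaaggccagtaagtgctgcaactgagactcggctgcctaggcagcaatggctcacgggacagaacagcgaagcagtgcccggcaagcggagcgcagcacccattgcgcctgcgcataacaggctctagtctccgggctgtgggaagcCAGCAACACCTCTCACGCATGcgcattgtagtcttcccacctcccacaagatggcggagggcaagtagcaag
APC internal start at chr5:112737635-112737934, replicate 2 summit: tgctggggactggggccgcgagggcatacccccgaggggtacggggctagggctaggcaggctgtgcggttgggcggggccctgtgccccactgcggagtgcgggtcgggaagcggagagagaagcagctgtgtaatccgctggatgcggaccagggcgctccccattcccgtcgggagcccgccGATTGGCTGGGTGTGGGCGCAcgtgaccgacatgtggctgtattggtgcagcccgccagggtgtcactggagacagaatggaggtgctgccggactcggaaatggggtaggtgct
DKK1 at chr10:52314031-52314330, motifs: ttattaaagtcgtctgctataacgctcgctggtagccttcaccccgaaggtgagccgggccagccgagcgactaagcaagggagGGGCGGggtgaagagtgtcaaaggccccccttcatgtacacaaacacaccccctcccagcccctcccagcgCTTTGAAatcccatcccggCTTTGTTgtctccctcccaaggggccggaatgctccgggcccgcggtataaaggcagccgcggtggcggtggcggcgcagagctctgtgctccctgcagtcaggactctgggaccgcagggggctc

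The 9 genes fell into 5 with summits in their windows and 4 with none. DKK1, FZD6, APC, GSK3B and CTNNB1 each had summits of at least 2 libraries within 200 bp of each other, and AXIN1, AXIN2, TCF7L2 and LEF1 had no summit of any library within 50 kb. The same window held at least 1 summit for 35.0% of all coding genes, and summits of at least 2 libraries within 200 bp for 6.53%. All 3 libraries met at DKK1 alone of the 9, a pattern that 2.06% of coding genes showed. Since the genes were chosen with these summits known, their shares were not tested against the others. The threshold at 50 kb passed between a replicate 3 summit 38.0 kb from FZD6 and a replicate 3 summit 57.5 kb from LEF1.

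**Figure D1:**
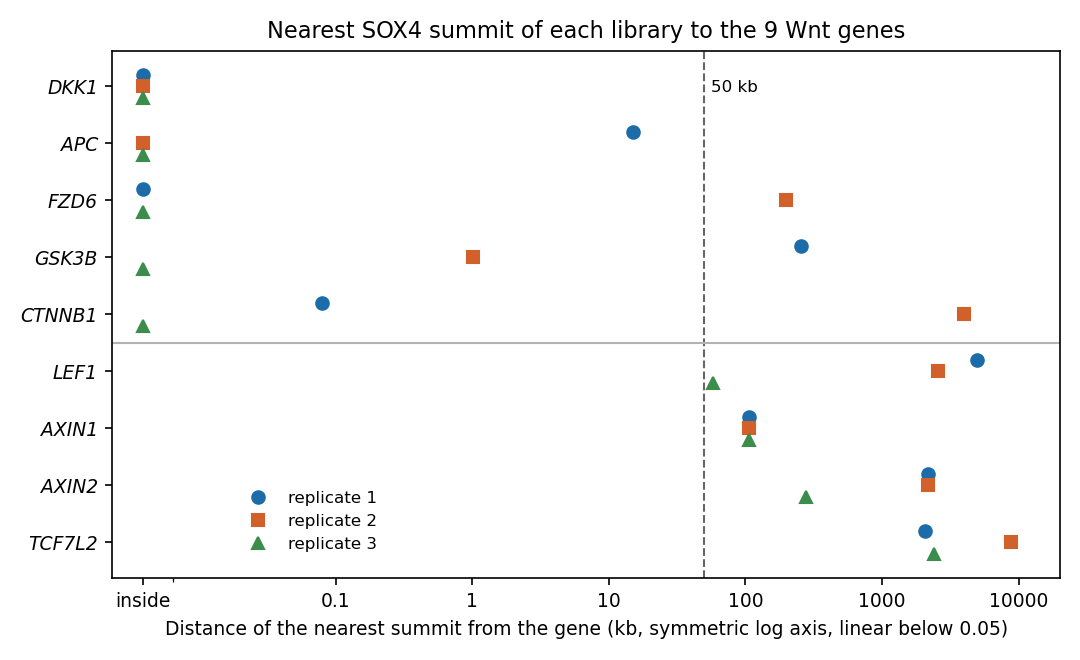
Distance in kb from each of the 9 genes (rows) to the nearest summit of each library (blue circles replicate 1, orange squares replicate 2, green triangles replicate 3), on a symmetric log axis that is linear below 0.05 kb; the dashed line is the 50 kb limit. The 5 genes above the grey line have summits of at least 2 libraries inside the limit, and the 4 below it have none, with the nearest at 57.5 kb from LEF1.

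DKK1, the secreted inhibitor, carried the one site of all 3 libraries. The gene spans chr10:52314281-52317657 and is 3.38 kb long. The summit of replicate 1 lay 246 bp past its annotated start with a score of 2.99, that of replicate 2 at 333 bp with 5.85, and that of replicate 3 at 77 bp with 6.40. The 3 libraries therefore placed their summits inside the gene and on the same side of the start, but not at the same base. The summits of replicates 1 and 2 were 87 bp apart, those of replicates 1 and 3 were 169 bp apart, and those of replicates 2 and 3 were 256 bp apart. Replicate 1 alone links the other two at 200 bp, and its summit scored above only 1.83% of its list. The region spanned 256 bp, and 93.7% of the 331 regions of 3 libraries were narrower. An end of PRKG1-AS1, a long non-coding RNA gene, stands 153 bp from the DKK1 start, so the site is 230 to 486 bp from that gene as well.

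FZD6, a Frizzled receptor gene at chr8:103298494-103332866, had a site of replicates 1 and 3. Replicate 1 had a summit 535 bp inside the lower coordinate of the gene with a score of 5.14, and replicate 3 had one at 497 bp with 12.6. The 2 summits were 38 bp apart. The replicate 3 score was the highest of the 16 and stood above 96.0% of its list, while the replicate 1 score stood above 34.2%. The nearest replicate 2 summit was 197 kb away. An end of LOC105369147, a long non-coding RNA gene, lay 173 bp from the replicate 3 summit and 211 bp from the replicate 1 summit. A second replicate 3 summit, 38.0 kb past the other end of FZD6 with a score of 4.11, was 633 bp from CTHRC1, a gene for a secreted glycoprotein, and no other library had it. Chromosome 8 is dense in summits: 15.0% of its 715 coding genes had a reproducible region within 5 kb of an end, against 2.97% of all coding genes. Outside the FZD6 window but within 1 Mb lay 32 summits, more than around 99.0% of coding genes.

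APC, the large scaffold of the destruction complex and a tumour suppressor gene, spans 139 kb at chr5:112707498-112846239 and had summits at both of its annotated starts. At the upstream start, replicate 3 alone had a summit, 12 bp before it, with a score of 4.57. At the internal start, 30.4 kb downstream, replicate 2 had a summit 55 bp before it with a score of 5.72 and replicate 3 had one 66 bp past it with 4.14. The upstream start was thus met by 1 library and the internal start by 2, on either side of it and 121 bp apart. The midpoint of the shared region is 30392 bp from the nearer end of the gene, so a count by gene ends within 5 kb leaves APC out. Of the 387 coding genes whose annotated starts had a reproducible region within 1 kb, 35 (9.04%) likewise had none within 5 kb of a gene end, and APC was the 1 of the 92 Wnt genes listed below among them.

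Replicate 2 had a further APC summit at chromosome 5, 112761042, inside the gene and 23157 bp past the internal start, with a score of 5.57. It was not near a coding gene end or another library's summit. Replicate 1 had no summit at either start. Its 1 summit in the window, with a score of 6.91, was 14.9 kb past the far end of APC and 129 bp from SRP19, a signal recognition particle gene. APC was therefore the other gene besides DKK1 with summits of all 3 libraries somewhere in its window, which 3.56% of coding genes had, but replicate 1 did not share a site with the others.

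GSK3B, the kinase of the destruction complex, spans 273 kb on the minus strand at chr3:119821321-120094447. Replicate 2 had a summit 1004 bp before its start with a score of 3.82, and replicate 3 had one 1042 bp before it with 6.83. These 2 were 38 bp apart, the same distance as at FZD6, and both lay inside GSK3B-DT, a long non-coding RNA gene, 347 and 385 bp from its end. Replicate 3 had a second summit 287 bp past the GSK3B start, inside the gene, with a score of 5.44. The libraries therefore agreed on the site within the non-coding neighbour and not on the one within GSK3B. The nearest replicate 1 summit was 254 kb away, beside LRRC58.

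CTNNB1, which encodes beta-catenin, lies on the plus strand at chr3:41199505-41240443. Replicate 1 had a summit 80 bp before the start with a score of 6.76, and replicate 3 had one 111 bp past it with 4.92. The midpoint of the pair fell at the start, but the summits were 191 bp apart, and 95.9% of the 639 regions of 2 libraries were narrower. No end of another gene lay within 10 kb of either summit. Replicate 2 had no summit within 3956 kb of CTNNB1.

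**Figure D2:**
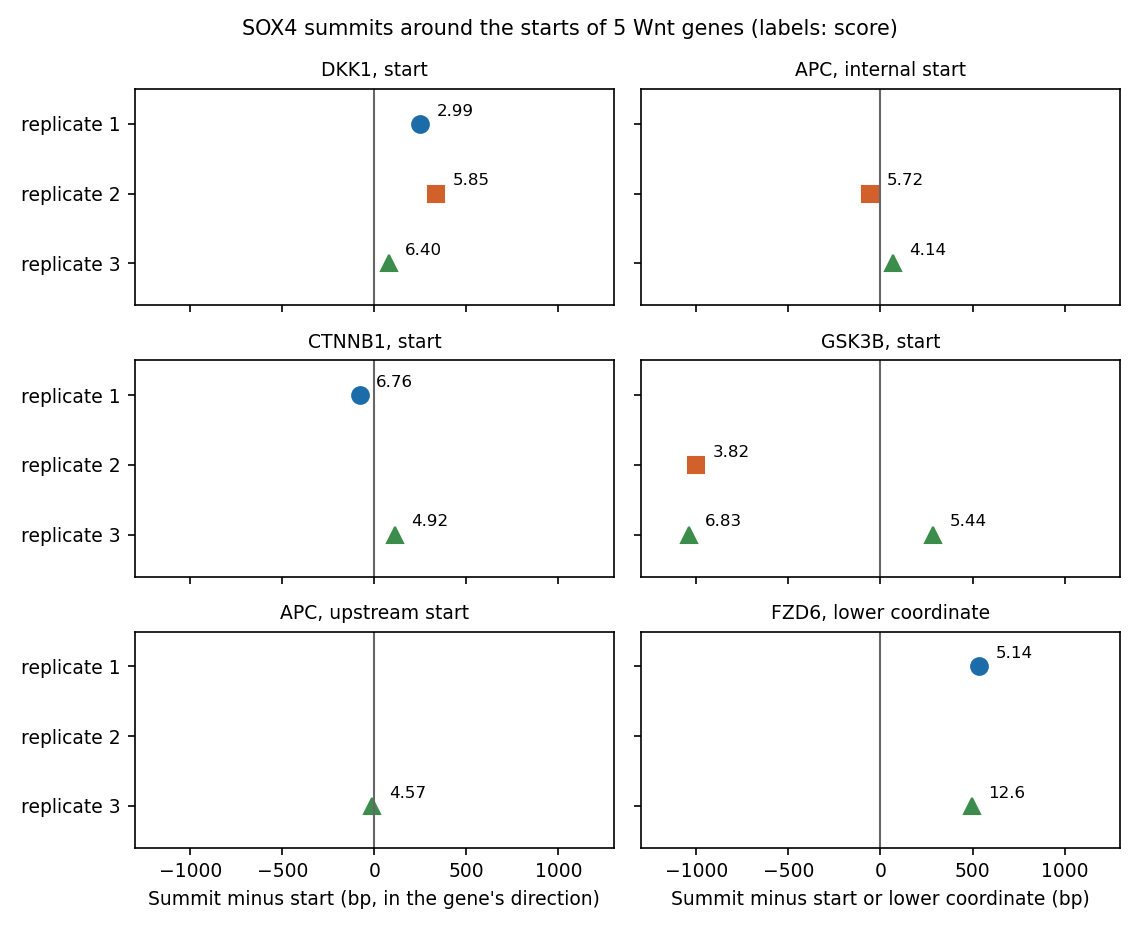
Summits around the annotated starts of DKK1, CTNNB1, APC (upstream and internal start) and GSK3B, and of the lower coordinate of FZD6; the x axis is the distance in bp (for the genes with an annotated start, in the gene's direction), rows are the 3 libraries, and each point carries its score. DKK1 is the 1 panel with points of 3 libraries, and the GSK3B pair of replicates 2 and 3 stands over 1000 bp before the start.

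Every shared site of the 9 genes thus stood near a start or end of the gene. Of the 16 summits, 13 lay within 1.1 kb of the gene's own annotated starts or ends, and these held all 11 shared ones. That distance was set after the values were seen, so finding all 11 shared summits within it is no independent result. The share of all summits within it of a gene's start or end was not computed. Stretches of this kind make up 2.65% of the 1828 kb in the 9 windows. The FZD6 and GSK3B pairs were counted as the gene's own though they lay nearer to an end of a long non-coding RNA gene. Of the remaining 3 summits, 2 were within 1.1 kb of the ends of CTHRC1 and SRP19, and the replicate 2 summit inside APC was at neither. For sharing, 11 of the 16 summits were shared, by library 3 of 4 in replicate 1, 3 of 4 in replicate 2 and 5 of 8 in replicate 3. Of all summits, 52.9% were shared in replicate 1, 43.4% in replicate 2 and 18.3% in replicate 3.

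The sites of the Wnt genes were not among the strongest of the lists. Of the 16 summits, 7 scored above the median of their list and 1, the FZD6 summit of replicate 3, was in the top 10%. The shared summits of the 9 genes stood above a median of 34.2% of their list in replicate 1, 51.9% in replicate 2 and 67.1% in replicate 3. For all shared summits these medians were 65.4%, 68.9% and 78.1%. None of the 5 genes kept a pair within 200 bp when only summits at or above their list's median were used. The share of all coding genes that kept such a pair under this filter was not computed. At DKK1 the replicate 2 and 3 summits are both above the median, but 256 bp apart. At CTNNB1 the replicate 1 summit is above and the replicate 3 summit below, and at FZD6 and GSK3B only the replicate 3 summit of the pair is above. At APC's internal start only the replicate 2 summit is above.

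**Figure D3:**
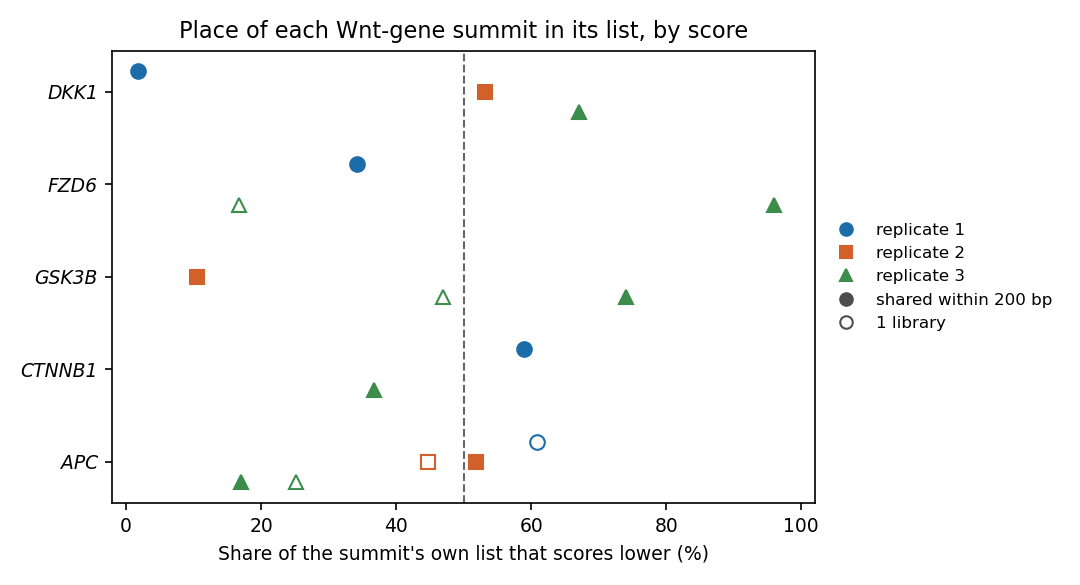
Place of the 16 summits in their own lists, as the percent of the list with a lower score, by gene (rows) and library (shape and colour); filled points are shared within 200 bp and open points come from 1 library, and the dashed line is the middle of the list. Shared and unshared points lie on both sides of it, from 1.83% for DKK1 in replicate 1 to 96.0% for FZD6 in replicate 3.

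By gene ends, 4 of the 9 genes (DKK1, FZD6, GSK3B and CTNNB1) had a reproducible region within 5 kb, against 2.97% of all coding genes, and 1 (DKK1) had one of all 3 libraries, against 0.739%. Without FZD6, that is off chromosome 8, the counts were 3 of 8 genes, against 2.53% of 19322 coding genes. By annotated starts, which RefSeq windows gave for 7 of the 9 genes, 3 (DKK1, APC and CTNNB1) had a reproducible region within 1 kb, against 2.44% of 15843 coding genes; by single starts these were 3 of 10, against 2.24%. GSK3B missed that limit by the midpoint of its region at 1023 bp.

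The calls rested on different libraries. Without replicate 3, the longest list, DKK1 was the 1 gene left of the 5 with a shared site; without replicate 1 there were 2, APC and GSK3B, and without replicate 2 there were 3, DKK1, FZD6 and CTNNB1. Leaving out a library can lower sharing for any gene, and the shares of all coding genes under these settings were not computed. The count also moved with the distance that counts as shared. Within 100 bp CTNNB1 and APC were lost and 3 genes remained, and within 50 bp FZD6 and GSK3B remained. For all coding genes these distances were applied only to reproducible regions within 5 kb of an end. Their share was 2.03% within 100 bp and 1.31% within 50 bp, against 2.97% within 200 bp. Widening the gene window to 100 kb or narrowing it to 5 kb left the same 5 genes. The share of all coding genes under the same rule was 9.47% at 100 kb and 3.47% at 5 kb.

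The 4 genes without summits differed widely in how far away the nearest one was. For AXIN1, a destruction complex scaffold at chr16:287440-352723, all 3 libraries had the same site at 106 kb. Its summits lay at chromosome 16, 458451, 458485 and 458550, with scores of 7.26, 13.1 and 8.09, inside RAB11FIP3, whose nearer end was 32.8 to 32.9 kb away. The window of AXIN1 held 9 other coding genes, more than that of any other of the 9, and no summit. For LEF1, the nuclear factor at chr4:108047548-108168932, the replicate 3 summit at 57.5 kb had a score of 3.92 and was 188 bp from HADH, a fatty acid oxidation gene. The nearest summits of replicates 1 and 2 to LEF1 were 4971 kb and 2574 kb away. AXIN2, the inducible AXIN1 relative at chr17:65528563-65561648, had its nearest summit, of replicate 3, at 275 kb with a score of 3.92, and replicates 1 and 2 had theirs at 2156 kb, both beside NOL11. TCF7L2, at chr10:112950247-113167678, had its nearest summits farther away than the other 8 genes when the closest of any library is taken: those of replicates 1, 2 and 3 lay at 2078, 8829 and 2382 kb.

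Genes with sites of several libraries and genes without them were then set side by side, as a description with no test. Outside the 50 kb window and within 1 Mb, the number of summits of all libraries was 0 for DKK1, 2 for CTNNB1, 7 for APC, 10 for GSK3B and 32 for FZD6, and it was 0 for TCF7L2, 1 for LEF1, 1 for AXIN2 and 10 for AXIN1. The 2 kinds of gene overlapped, and the median of all coding genes was 4, with quartiles of 2 and 7. Gene lengths overlapped, from 3.38 kb (DKK1) to 273 kb (GSK3B) with sites and from 33.1 kb (AXIN2) to 217 kb (TCF7L2) without. Of the genes with sites, DKK1, FZD6 and GSK3B had an end of a long non-coding RNA gene within 1 kb of the start or lower coordinate; of those without, TCF7L2 did, with LOC124902502 at 382 bp. Over all coding starts, 53.1% of the 497 with a reproducible region within 1 kb had an end of another gene within 1 kb, against 31.0% of all 22199. That count took other genes of any type at single annotated starts, so it is not the measure used for the members.

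The base make-up of the promoter windows also overlapped. The 5 windows of DKK1, APC, GSK3B and CTNNB1 had 56.3 to 74.0% G and C and an observed-over-expected CpG ratio of 0.590 to 0.971. The 5 windows of AXIN1, LEF1 and TCF7L2 had 42.7 to 78.0% and 0.284 to 1.13. Over all starts with a reproducible region within 1 kb the medians were 65.0% and 0.884, against 62.3% and 0.737 over all coding windows. AXIN1, with no summit within 50 kb, had the highest values of the 10 windows, and the APC start met by 2 libraries was richer in G and C, at 68.0%, than the upstream start, at 56.3%.

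**Figure D4:**
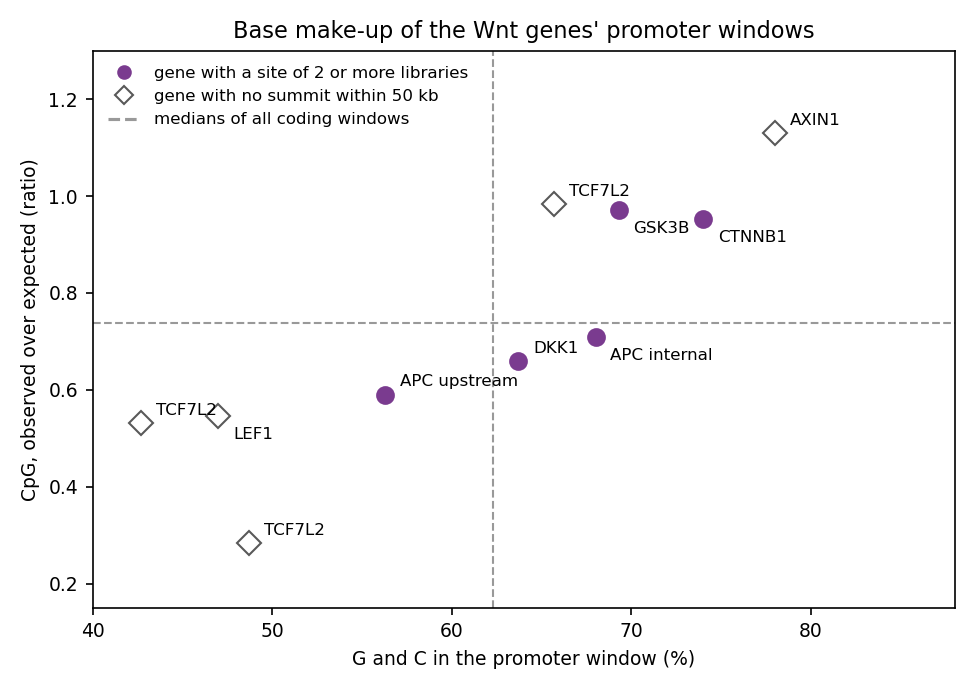
G and C content (percent) against observed-over-expected CpG (ratio) for the 10 promoter windows of 7 Wnt genes; purple circles are genes with a site of at least 2 libraries, open diamonds genes with no summit within 50 kb, and dashed lines the medians of all coding windows. The 2 kinds of gene overlap on both axes, and AXIN1 has the highest values of both.

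Motifs were searched on both strands of the windows, with positions counted from 0 at the start base. The SOX cores ACAAAG and ACAATG and the longer AACAAAG, which contains ACAAAG, were found in 13.6%, 8.17% and 4.30% of the 22199 coding windows. Any of them stood in 2 of 5 windows of genes with sites: DKK1 and the upstream APC window, at a start met by replicate 3 alone. Among genes without sites the count was also 2 of 5 windows (2 of the 3 TCF7L2 windows). The share of all windows with any of these forms was not computed. In the DKK1 window printed above, AACAAAG lay at -76 to -70 on the other strand and the TCF/LEF form CTTTGAA, present in 3.61% of windows, at -95 to -89, while the 3 summits were at 77, 246 and 333. In the upstream APC window, ACAATG lay on the other strand at 1 to 6, beside the replicate 3 summit at -12. The internal APC window had the CCAAT box (34.7% of windows) on the other strand at -64 to -60 and -24 to -20, beside the replicate 2 summit at -55. The CTNNB1 window held GGGCGG (SP/KLF form, 56.3% of windows) 3 times and none of the other motifs, with the replicate 1 summit at -80. The GSK3B, AXIN1 and LEF1 windows held none of the SOX or TCF/LEF forms. The GSK3B summits, at 287, -1004 and -1042, lay outside its window, so the sequence at its shared site was not searched. CTTTGAT (1.98% of windows) and the NRF1 form (1.50%) were in none of the 10 windows, and the ETS form CCGGAAG (12.8%) was in that of AXIN1 alone. The windows whose start had a reproducible region within 1 kb were counted as well, though the region can lie outside the window, as at DKK1. Of them, 13.5% held ACAAAG, 7.24% ACAATG and 3.82% AACAAAG, against the shares of all windows above. The same comparison gave 70.8% for GGGCGG, against 56.3%, and 18.9% for CCGGAAG, against 12.8%. It gave 29.6% for CCAAT, against 34.7%, 2.41% for CTTTGAA, against 3.61%, 1.21% for CTTTGAT, against 1.98%, and 1.61% for the NRF1 form, against 1.50%.

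The other Wnt genes were counted in a list of 92 by role, which includes the 9. Of the 83 others, 27 (32.5%) had at least 1 summit within 50 kb, against 35.0% of all coding genes, 9 (10.8%) had summits of at least 2 libraries within 200 bp, against 6.53%, and 5 (6.02%) had a reproducible region within 5 kb of an end, against 2.97%. The last 5 were DKK4, TNKS, DVL2, PYGO2 and CHD8. Off chromosome 8, where DKK4 and TNKS lie, the count was 3 of 78 (3.85%), against 2.53%. By role, still without the 9 genes, such a region was found at 0 of 19 ligand genes, 0 of 2 ligand release genes, 1 of 15 secreted regulators (DKK4), 0 of 21 receptors and membrane regulators, 2 of 14 relay and destruction complex genes (DVL2 and TNKS) and 2 of 12 nuclear effectors (PYGO2 and CHD8).

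DKK4, a relative of DKK1 that also blocks LRP co-receptors, was the other gene of the 92 with a region of all 3 libraries within 5 kb. Its summits lay 294, 220 and 283 bp beyond its higher coordinate in replicates 1, 2 and 3, with scores of 11.1, 3.82 and 8.22. These summits fell between that coordinate and an end of VDAC3, so by position the site is not that of DKK4 alone. A second region, of replicates 2 and 3 at 591 and 594 bp, was nearer to VDAC3, at 33 and 36 bp. DVL2, a Dishevelled gene that relays the signal from Frizzled, had its replicate 2 summit 72 bp and its replicate 3 summit 25 bp from its end, with scores of 7.89 and 11.3. TNKS, the tankyrase gene whose product acts on axins, had them in replicates 1 and 3 at 343 and 465 bp, with 3.86 and 10.5. PYGO2, a beta-catenin co-activator gene, had them in replicates 1 and 3 at 154 and 286 bp, with 4.28 and 13.4. The CHD8 region, of replicates 1 and 3 with scores of 4.15 and 3.94, was about 1.5 kb from CHD8, a chromatin remodeller gene, and nearer to SUPT16H, at 285 and 335 bp. At WNT1 and WNT10B, named after their values were seen, the site of 3 libraries in the 50 kb window was 20 to 145 bp from an end of ARF3, 20.7 to 20.8 kb from WNT1 and 7.71 to 7.83 kb from WNT10B. KREMEN1 and TLE4, also named afterwards, had sites far from coding gene ends. That of KREMEN1, of replicates 1 and 2, lay inside the gene, 47.3 kb from its end and 46367 and 46368 bp from C22orf31. That of TLE4, of replicates 2 and 3, lay 37.2 to 37.3 kb outside it, and TLE4 was the nearest coding gene.

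**Figure D5:**
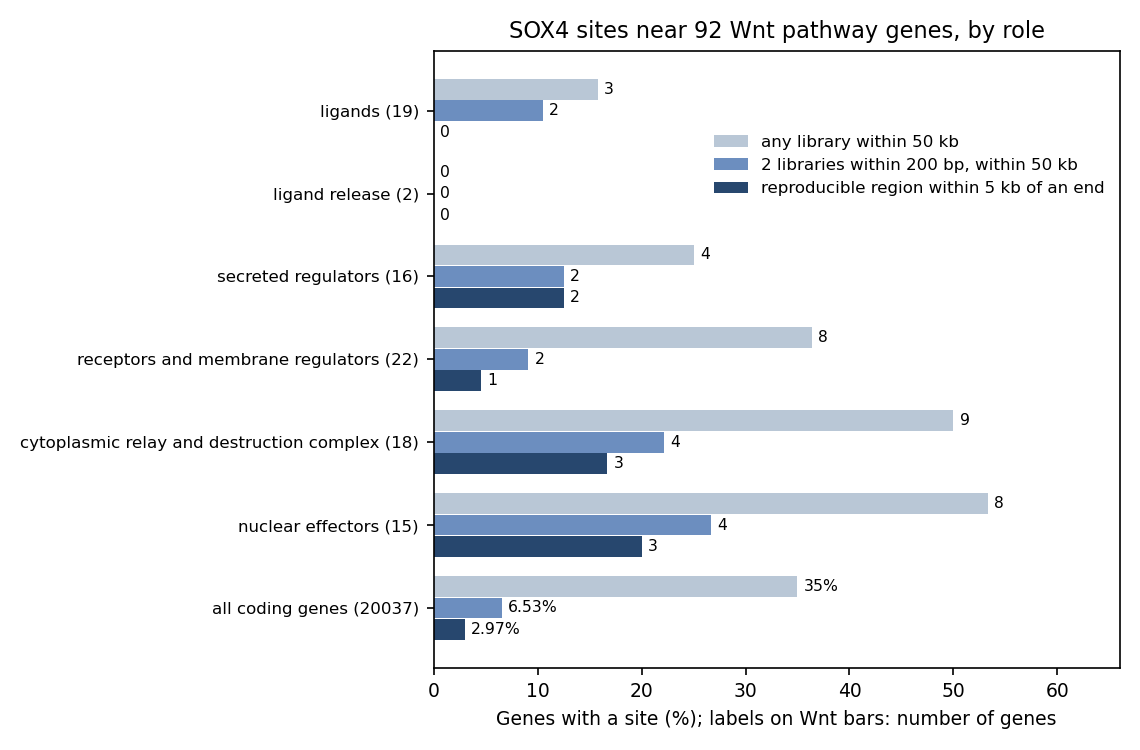
Percent of genes with a SOX4 site in the 92 Wnt genes, the 9 included, by role (number of genes in brackets) and, at the bottom, in all coding genes, under 3 rules of rising strictness (light to dark); labels on Wnt bars are numbers of genes. Under the strictest rule the counts from top to bottom are 0 of 19, 0 of 2, 2 of 16, 1 of 22, 3 of 18 and 3 of 15, with 2.97% of all coding genes. Of the 9 genes so counted, 4 belong to the Wnt genes chosen with some of their sites known.

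Genes with the same libraries and the nearest places in the lists were looked up for the 4 members with a region within 5 kb. The likeness covers only 2 or 3 libraries. For DKK1, 139 genes were compared, fewer than the 148 coding genes with a region of all 3 libraries within 5 kb. The nearest was GPAT4, a lipid synthesis enzyme gene, at 20.9 percentage points, then NUF2 and RGS5, which share 1 region, at 21.1. For FZD6 the nearest of 204 was MICU3, a mitochondrial calcium uptake gene also on chromosome 8, at 0.750, then KLLN and MLDHR, each at 6.91. For GSK3B the nearest of 180 were GIN1 and PPIP5K2 at 6.55 and GK5 at 8.89. For CTNNB1 the nearest of 204 were RPF1, PSMB2 and COQ2 at 4.02, 4.66 and 7.54.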

How the data were processed

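SOX4 ChIP-seq was analysed in 3 libraries of BT549 cells. Per the submitters' processing notes the authors used BWA, SAMtools and MACS2, with no versions given. Each deposited file lists 1 bp summits called per library, with a score that, per the layout of the file, is the −log10 of either its p or its q value; which one, and whether a control was used, is not given in the sources used here. The notes name hg19, but the lists reach position 83247361 on chromosome 17, 64088674 on 20 and 156030493 on X, beyond the ends of those chromosomes in hg19, so the lists were read as GRCh38, 1-based.

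Gene spans were those of RefSeq on GRCh38.p14, and starts and strands from RefSeq promoter windows, whose overlaps on opposite strands matched in 2767 of 2767 pairs. Exons and introns were not told apart. The computation used Python 3.11.15 and numpy 2.4.6. Sharing was set at 200 bp, the gene window at 50 kb and the distance to gene ends at 5 kb, by region midpoint. The region and window steps were run on simulated data with pairs planted inside the limits, which were found. False calls were not counted, so the run does not measure how well the steps work on these lists. The 9 genes, the wider list, the motifs and the rules were chosen with earlier results of these data known, so no p-value was computed and counts stand beside those of all coding genes. Named besides the 9 are the nearest genes of their summits, Wnt genes with a reproducible region within 5 kb, and for each such member the 3 genes nearest in list place. WNT1, WNT10B, KREMEN1 and TLE4 were added after their values were seen. Alternatives changed the windows, the sharing distance, the score threshold, the list length and the libraries; the distance to annotated starts was added after the data were seen.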

Additional observations from a re-analysis of the deposited data

How the results depend on the processing

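The count of Wnt genes with a summit of any library within 50 kb stayed within 1.5 times of 5 in all 9 alternatives, and the highest was 6 (LEF1 added) at 100 kb. Of all coding genes, 20.4% had such a summit at 5 kb, 35.0% at 50 kb and 46.7% at 100 kb. The count of 5 genes with summits of at least 2 libraries within 200 bp stayed within 1.5 times of 5 in 6 of 14. It was 2 with sharing within 50 bp, 3 within 100 bp, 0 with only summits at or above the median score, 2 with lists cut to the 1368 best summits, 1 where all 3 libraries were required, and 1 to 3 with 1 library left out. The count of 4 genes with a reproducible region within 5 kb was within 1.5 times in 8 of 14. It was 2 within 50 bp, 0 above the median score, 2 with cut lists, 1 in all 3 libraries and 1 to 3 with 1 library left out. Of all coding genes, 1.31% had such a region with sharing within 50 bp, against 2.97% within 200 bp. By annotated starts the count of the 9 genes was 3 (DKK1, CTNNB1 and APC). The wider list, at 9 of 92, was within 1.5 times in 7 of 13; it was 4 within 50 bp, 14 at 50 kb, 2 above the median score, 2 in all 3 libraries and 2 to 7 with 1 library left out. Median-score, cut-list and left-out-library settings use fewer summits for every gene, and the shares of all coding genes under them were not computed. The others that lowered a count use every summit, under a tighter rule or, for annotated starts, a different one. The rule by annotated starts brought in APC and could not count FZD6, for which no annotated start was given. No paired analysis was possible because the libraries form 1 group. Without read counts, a missing summit cannot be told apart from one below the authors' threshold.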
